A study of Mus musculus with 8 samples.

Results

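The genes described here are those of lower glycolysis and of lactate handling, 10 of the 24460 genes counted in mouse embryonic fibroblast (MEF) cells exposed to RHPS4. They are a list of named genes, chosen with earlier results of these data known, with Tpi1, Gapdh, Pgk1, Pgam1, Eno1 and Pkm for the steps from triose phosphate to pyruvate, Ldha and Ldhb for lactate dehydrogenase, Pdk1 for the kinase that limits pyruvate use in mitochondria, and Slc16a3 for a lactate exporter. RHPS4 is a small molecule that binds G-quadruplexes (G4), four-stranded folds of guanine-rich DNA or RNA. Wild type MEF cells were grown without RHPS4 (0 µM, 3 libraries), with 2 µM (3 libraries) or with 10 µM (2 libraries), all in medium with 25 mM glucose. The protocol names exposures of 16 or 24 h without saying which applies to these libraries, and the strain and age of the embryos are not given in the sources used here. The labels do not say whether libraries of 1 dose came from separate cultures, so the p-values measure the spread between libraries, which may be technical. What the RNA-Seq of ribosome-depleted total RNA compared is how transcript levels changed with the dose.

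Glycolysis splits glucose into triose phosphates, and its lower part turns these into pyruvate in reactions that yield ATP and NADH. Lactate dehydrogenase reduces pyruvate to lactate and so returns NAD+ to the GAPDH step, and monocarboxylate transporters move lactate across the cell membrane. Pyruvate that enters the mitochondrion meets pyruvate dehydrogenase, which PDK1 switches off by phosphorylation. Many of these genes are targets of the hypoxia-inducible factor (HIF), which binds the core motif ACGTG or GCGTG in their promoters, and proliferating fibroblasts in culture rely on this pathway even in oxygen.

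Promoter sequences were examined because RHPS4 is a G4 ligand and because the genes share a regulator. RefSeq (GRCm38.p6) gave 15 promoter windows for the 10 genes, each reaching from 250 bases before a transcription start to 50 bases after it, 300 bases in all. The letters ACGTG or GCGTG, on either strand, were found in 12 of the 15 windows (80%), against 43.8% of all 32851 mouse windows. At least 2 such matches were found in 11 windows (73.3%), against 20.6% of all windows. By gene, 9 of the 10 had a match, and Tpi1 had none. A G4 pattern, 4 runs of at least 3 G with gaps of 1 to 7 bases on either strand, was found in 8 of the 15 windows (53.3%), against 18.6% of all windows, and in 5 of the 10 genes. Windows of 1 gene overlap in part, as those of Eno1 that start at 150236947 and 150236974 on chromosome 4 do. Each Eno1 window held 2 matches and the G4 pattern, so the shares by window count some sequence repeatedly. The counts by gene have no share over all genes to set them against. All mouse windows were not matched to these for base composition or expression, so enrichment over like promoters was not tested. A match of letters is not a measured binding site. Of the genes called lower at 10 µM, Pdk1 had 2 matches in its first window (chr2:71872974-71873273, plus strand) and Gapdh 3 in its only one (chr6:125165724-125166023, minus strand). Ldha had the most, 7 in its first window (chr7:46845554-46845853, plus strand), where each of 2 CACGTG palindromes counts on both strands, and Tpi1 had 0 (chr6:124814109-124814408, minus strand). The second window of Ldha held the G4 pattern, but none of these 4 windows did. They are given 5′ to 3′ along the gene to show how differently the matches are spread, with the matched letters in capitals:
Pdk1: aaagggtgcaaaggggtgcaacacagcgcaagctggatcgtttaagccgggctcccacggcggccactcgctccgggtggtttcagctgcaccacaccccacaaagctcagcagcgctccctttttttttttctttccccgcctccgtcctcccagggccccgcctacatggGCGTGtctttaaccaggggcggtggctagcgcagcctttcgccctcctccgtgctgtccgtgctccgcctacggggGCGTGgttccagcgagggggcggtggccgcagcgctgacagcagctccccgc
Gapdh: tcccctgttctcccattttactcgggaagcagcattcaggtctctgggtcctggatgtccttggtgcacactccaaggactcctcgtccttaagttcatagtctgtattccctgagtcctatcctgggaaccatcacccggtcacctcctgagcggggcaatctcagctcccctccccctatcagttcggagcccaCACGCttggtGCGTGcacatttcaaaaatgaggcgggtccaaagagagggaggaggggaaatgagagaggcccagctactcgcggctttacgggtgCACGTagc
Ldha: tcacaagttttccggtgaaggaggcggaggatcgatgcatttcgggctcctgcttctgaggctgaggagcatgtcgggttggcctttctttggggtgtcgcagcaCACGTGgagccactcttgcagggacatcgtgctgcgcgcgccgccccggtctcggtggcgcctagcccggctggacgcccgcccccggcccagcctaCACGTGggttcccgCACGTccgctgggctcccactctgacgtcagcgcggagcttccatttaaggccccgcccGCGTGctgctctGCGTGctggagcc
Tpi1: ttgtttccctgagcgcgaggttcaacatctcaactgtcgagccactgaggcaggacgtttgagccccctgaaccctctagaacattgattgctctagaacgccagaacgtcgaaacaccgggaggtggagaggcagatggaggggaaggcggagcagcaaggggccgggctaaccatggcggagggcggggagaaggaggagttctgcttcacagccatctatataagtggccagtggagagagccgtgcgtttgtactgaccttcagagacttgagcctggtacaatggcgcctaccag

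The libraries held from 10455965 to 26688121 counts, and 14296 genes, all 10 of these among them, passed edgeR's filter on low counts. Levels are in CPM, counts relative to the TMM-scaled library total, and a value after ± is the SD over libraries. Each log2 fold change comes from edgeR's quasi-likelihood fit with its standard error (SE) and a p adjusted by Benjamini-Hochberg over every tested gene. DEGs are genes that differed more than 1.5-fold with this p below 0.01. The cells carried fibroblast RNA, with summed CPM of 10 fibroblast markers from 12800 to 14800 per library, against at most 10.2 for the lists of epithelial, endothelial, blood and skeletal muscle markers, in which Hbb-bs was at 0 everywhere. The fibroblast sum ran from 14400 to 14800 at 0 µM, 13100 to 13300 at 2 µM and 12800 to 13100 at 10 µM. Mean correlations of log2 CPM to the other libraries of the same dose ran from 0.9898, in the first 0 µM replicate, to 0.9929. That replicate was the highest of all libraries in 8 of the 10 genes, as described below. The share of counts from mitochondrial DNA was 13.23% to 14.41% at 0 µM, 7.404% to 8.26% at 2 µM and 5.327% to 6.318% at 10 µM. With the scaling taken over nuclear genes only, the same number of the 10 genes were DEGs in each comparison.

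In untreated cells the 10 genes spanned more than 3 orders of magnitude of transcript per length. Expressed as FPKM, CPM per kilobase of the gene's main mRNA, Pkm, which encodes pyruvate kinase, led at 1317 ± 201 (n = 3). Gapdh followed at 721 ± 27.8, Ldha at 497 ± 67.1, Tpi1 at 390.5 ± 38.8, Pgk1 at 246 ± 30.04 and Pgam1 at 129 ± 11.6. Pdk1 had 23.2 ± 1.75 FPKM and Ldhb 14.3 ± 2.62, each below every gene named before it. Eno1, at 1.01 ± 0.293, and Slc16a3, at 0.554 ± 0.145, had the lowest levels, with 10 to 48 and 12 to 61 counts per library. The Eno1 value is uncertain. Of the 75-base stretches of its transcripts, 44.31% also occur in other genes, above all Eno1b, which itself had 298 to 861 counts. Fragments that fit more than 1 place were not counted. Shared stretches also made up 67.5% for Pgk1, 55.52% for Gapdh and 40.62% for Pgam1, mostly with processed copies elsewhere in the genome, so their levels are uncertain too. Pgk1 and Gapdh, with larger shared parts than Eno1, had at least 4938 and 8390 counts per library. Why Eno1 had so few counts was not tested. For Pkm it was 14.01%, for Ldhb 12.56%, for Ldha 3.114% and for Tpi1 2.25%, and for Pdk1 and Slc16a3 it was 0%. Together the 10 genes took 0.616% ± 0.0551 (n = 3) of all counts at 0 µM, 0.655% ± 0.0291 (n = 3) at 2 µM and 0.554% ± 0.0448 (n = 2) at 10 µM. Of the nuclear counts alone they took 0.7145% ± 0.06921, 0.712% ± 0.03107 and 0.5885% ± 0.04306 in the same order.

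At 10 µM against 0 µM, every one of the 10 genes had a negative log2 fold change, from −1.11 for Eno1 to −0.06 for Ldhb, with a median of −0.49, where the median of all tested genes was 0.016. Gapdh and Pdk1 fell as DEGs, 2 of the 10, and no member rose, against 3.09% of all tested genes called in either direction and 1.14% called lower. Without the minimum fold, Tpi1 and Pgam1 joined them, so that 4 of 10 passed the adjusted p, against 2.46% of all genes. Tpi1 and Pgam1 lost it in 7 and 4 of the 8 fits that each left out a library, with total counts (adjusted p = 0.0569 and 0.0296) and with only these doses in the fit (0.0307 and 0.0192). In 7 genes both 10 µM libraries lay below all untreated ones, which 20% of all tested genes also showed, and in Pkm, Ldhb and Slc16a3 the groups overlapped. With total counts in place of TMM, the median of all genes moved to 0.23 and that of the 10 genes to −0.276, Ldhb turned positive at 0.152, and no member was a DEG. At 2 µM none of the 10 was a DEG in edgeR or in DESeq2, against 0.497% of all genes in edgeR, and 3 (Ldhb, Pdk1 and Slc16a3) had an unadjusted p under 0.05, against 21.3% of all genes. There the median was −0.13, 7 genes were negative and 3 positive, and 8 overlapped with the untreated libraries, while Gapdh and Pdk1 lay wholly below them, as did 12.9% of all tested genes. In bulk RNA, fewer cells that express a gene and less of its RNA per cell cannot be told apart.

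**Figure D1:**
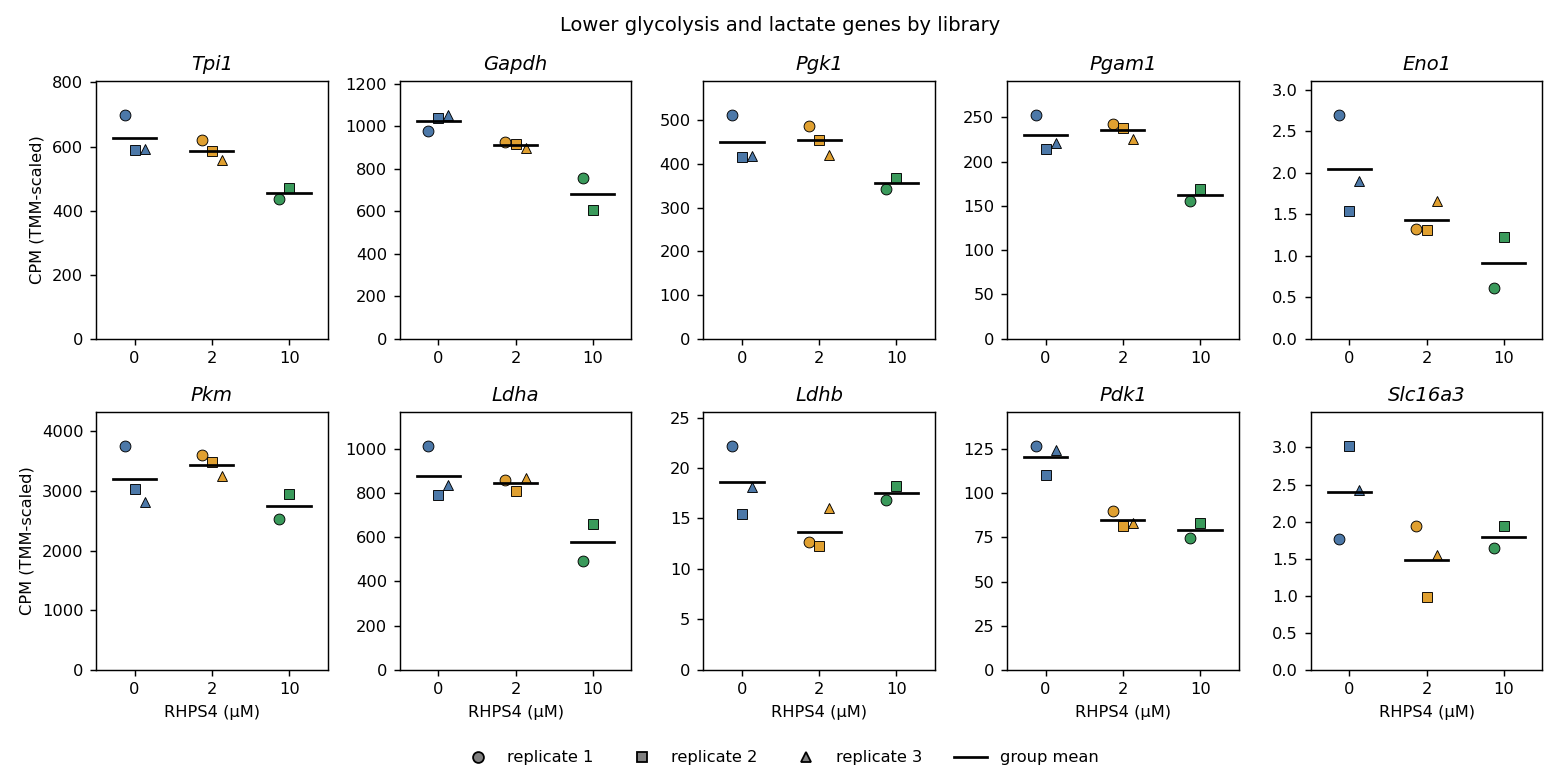
Level of each of the 10 genes in CPM after TMM scaling (vertical axes from 0, a scale of its own per gene) in the 8 libraries at 0, 2 and 10 µM RHPS4, with replicates as point shapes and group means as lines. Both 10 µM libraries lie below all others for Tpi1, Gapdh, Pgk1, Pgam1, Eno1 and Ldha, Pdk1 is already lower at 2 µM, and Ldhb is lowest in 2 µM libraries.

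**Figure D2:**
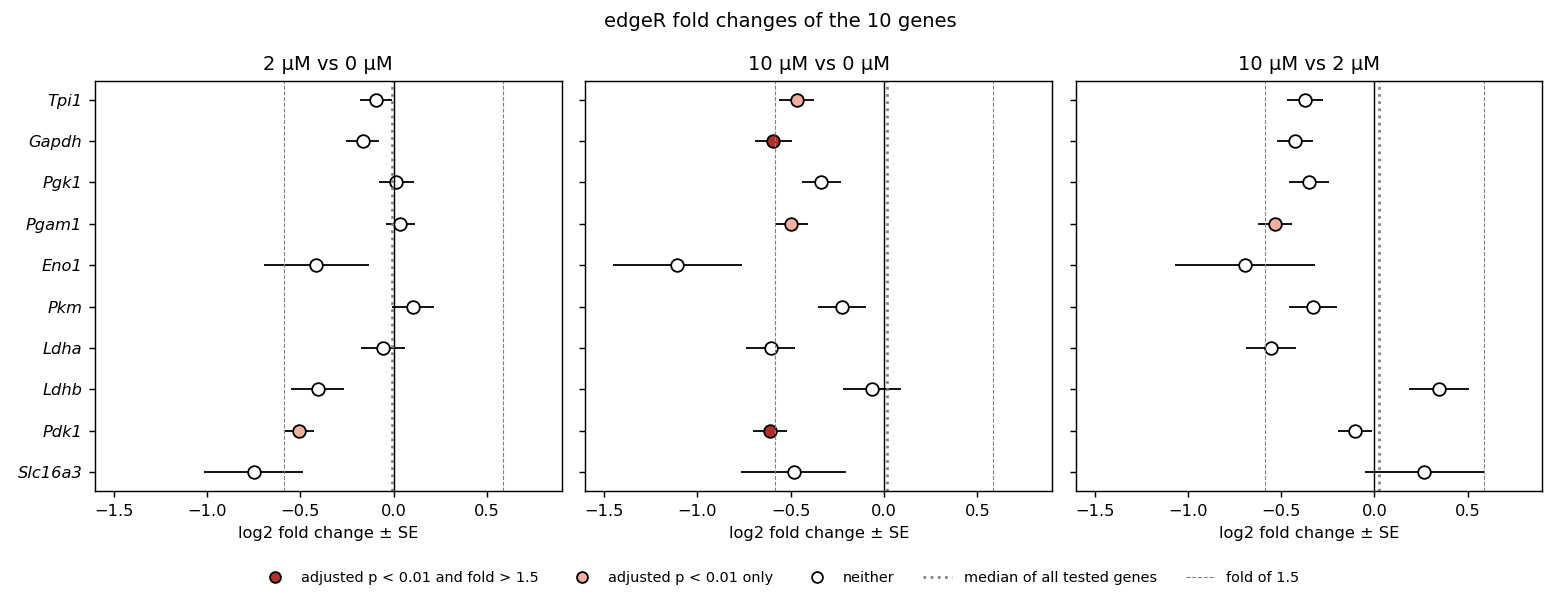
Log2 fold changes from edgeR of the 10 genes in the 3 comparisons, with bars of 1 standard error (SE), dashed lines at a fold of 1.5 and a dotted line at the median of all tested genes. All 10 points are negative at 10 µM against 0 µM, where Gapdh and Pdk1 are filled as DEGs, and Pdk1 is the only gene past the adjusted p at 2 µM.

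The 6 enzymes from triose phosphate to pyruvate were all lower at 10 µM than at 0 µM by value, with a median log2 fold change of −0.48, while at 2 µM 3 were below and 3 above the untreated level with a median of −0.04. TPI1 interconverts the triose phosphates. Tpi1 (chromosome 6, 124810586 to 124814296, minus strand, GRCm38) had 699.5, 590.5 and 592.8 CPM at 0 µM, 620.3, 584.5 and 557.7 CPM at 2 µM and 436.6 and 470.2 CPM at 10 µM. Both 10 µM libraries were below all the others, while the 0 and 2 µM libraries overlapped. The log2 fold change at 10 µM was −0.47 (SE 0.0957, adjusted p = 0.00878), a difference of −27.7% that passed the adjusted p but not the fold. It passed in only 1 of the 8 fits with a library left out (without the first 0 µM replicate, 0.0045), with adjusted p values of 0.0106 to 0.0483 in the others. DESeq2 gave −0.505 at 10 µM (adjusted p = 0.000102), also short of the fold. At 2 µM the edgeR value was −0.09 (SE 0.0845, adjusted p = 0.556).

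GAPDH oxidises glyceraldehyde-3-phosphate and makes the NADH that lactate dehydrogenase later uses. Gapdh (chromosome 6, 125161715 to 125166467, minus strand) had 979.8, 1039 and 1055 CPM at 0 µM, 924.9, 915.2 and 898.7 CPM at 2 µM, and 754.9 and 603.6 CPM at 10 µM. The 3 doses did not overlap, and the 10 µM libraries differed from each other more than those of any other dose. At 10 µM Gapdh fell by 0.59 on the log2 scale (SE 0.0985, adjusted p = 0.00296), from 1024 ± 39.4 CPM (n = 3) to 679.2 ± 107 (n = 2), a difference of −33.7%. This lies just past the fold threshold, and the call was lost without the second 0 µM replicate (adjusted p = 0.0136), without the third (−0.57, adjusted p = 0.0141) and when the second 10 µM replicate was left out (−0.47, adjusted p = 0.0285). It was also lost with only the 2 doses in the fit (adjusted p = 0.0194) and with total counts (−0.378, adjusted p = 0.0151). DESeq2 called Gapdh at 10 µM (−0.628, adjusted p = 8.47e-07). At 2 µM the edgeR value was −0.17 (SE 0.0867, adjusted p = 0.295).

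PGK1 makes the first ATP of the lower part, and PGAM1 moves the phosphate that remains. Pgk1 (chromosome X, 106187100 to 106203699, plus strand) had 416.6 to 512.5 CPM at 0 µM, 420.5 to 486.2 CPM at 2 µM and 343.4 and 367.5 CPM at 10 µM. The log2 fold change of Pgk1 was 0.02 at 2 µM (SE 0.0934, adjusted p = 0.946) and −0.34 at 10 µM (SE 0.105, adjusted p = 0.0558), which did not pass although the 10 µM libraries lay below all others. Pgam1 (chromosome 19, 41911923 to 41918660, plus strand) had 253.2, 214.3 and 221.7 CPM at 0 µM, 242.8, 238 and 225.1 CPM at 2 µM and 156.1 and 169.3 CPM at 10 µM. The untreated and 2 µM libraries were mixed, and the 10 µM libraries were well apart from both. The log2 fold change was −0.50 at 10 µM (SE 0.0894, adjusted p = 0.00461), a difference of −29.1% and short of the fold of 1.5. Without the third 0 µM, the second 2 µM or either 10 µM replicate its adjusted p was 0.0131 to 0.032. DESeq2 gave −0.533 for Pgam1 at 10 µM (adjusted p = 2.78e-05), also short of the fold. At 2 µM the edgeR value was 0.04 (adjusted p = 0.833).

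Enolase 1 and pyruvate kinase complete the path to pyruvate. Eno1 (chromosome 4, 150236721 to 150248879, plus strand) had 2.699, 1.536 and 1.905 CPM at 0 µM, 1.322, 1.304 and 1.664 CPM at 2 µM, and 0.6105 and 1.223 CPM at 10 µM. Its change of −1.11 at 10 µM was the most negative of the 10 and also the least precise (SE 0.346, adjusted p = 0.0557), and it did not pass. Eno1b, whose sequence overlaps with it most, had a log2 fold change of −0.38 (SE 0.206, adjusted p = 0.247). Pkm (chromosome 9, 59656368 to 59679375, plus strand) had 2821 to 3756 CPM at 0 µM, 3252 to 3593 CPM at 2 µM, and 2531 and 2955 CPM at 10 µM. The second 10 µM library lay within the untreated range, and the log2 fold changes were 0.10 at 2 µM (SE 0.114, adjusted p = 0.643) and −0.22 at 10 µM (SE 0.128, adjusted p = 0.27). The gene counts do not separate the PKM1 and PKM2 splice forms.

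The subunits of lactate dehydrogenase had unlike patterns over the doses. LDHA forms the muscle-type enzyme, which favours lactate formation, and LDHB the heart-type enzyme. Ldha (chromosome 7, 46841475 to 46855627, plus strand) had 1013, 788.6 and 833.8 CPM at 0 µM, 858.1, 810 and 867.2 CPM at 2 µM, and 492.3 and 659.7 CPM at 10 µM. The 0 and 2 µM libraries overlapped and both 10 µM libraries were lower, with a log2 fold change of −0.61 at 10 µM (SE 0.134, adjusted p = 0.0127), a difference of −34.4% that missed the adjusted p. DESeq2 called it (−0.65, adjusted p = 4.9e-05), as did edgeR with no filter on low counts (adjusted p = 0.00161) and edgeR fitted without the second 10 µM replicate (−0.86, adjusted p = 0.0075). Ldhb (chromosome 6, 142490249 to 142507957, minus strand) had 22.21, 15.41 and 18.14 CPM at 0 µM, 12.69, 12.31 and 16.05 CPM at 2 µM, and 16.79 and 18.27 CPM at 10 µM. Its lowest libraries were at 2 µM, where the log2 fold change was −0.41 (SE 0.144, adjusted p = 0.135), and at 10 µM it was −0.06 (SE 0.156, adjusted p = 0.823).

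Taken within each library, where scaling has no part, the log2 ratio of Ldha to Ldhb counts was 5.507, 5.675 and 5.521 in untreated cells, 6.074, 6.035 and 5.753 with 2 µM, and 4.871 and 5.171 with 10 µM. The 3 doses did not overlap, with the highest ratios at 2 µM and the lowest at 10 µM. The mean ratio was 0.387 higher at 2 µM than at 0 µM against a pooled SD of 0.14 (exact permutation test, two-sided, p = 0.1, the lowest that 3 against 3 allow, 0.36 after Benjamini-Hochberg adjustment over 9 ratio comparisons). At 10 µM it was lower than at 0 µM, with a difference of −0.546 against a pooled SD of 0.144 (exact permutation test, p = 0.2, the smallest that 3 against 2 allow, adjusted 0.36). The design cannot take these ratios below an unadjusted p of 0.05.

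**Figure D3:**
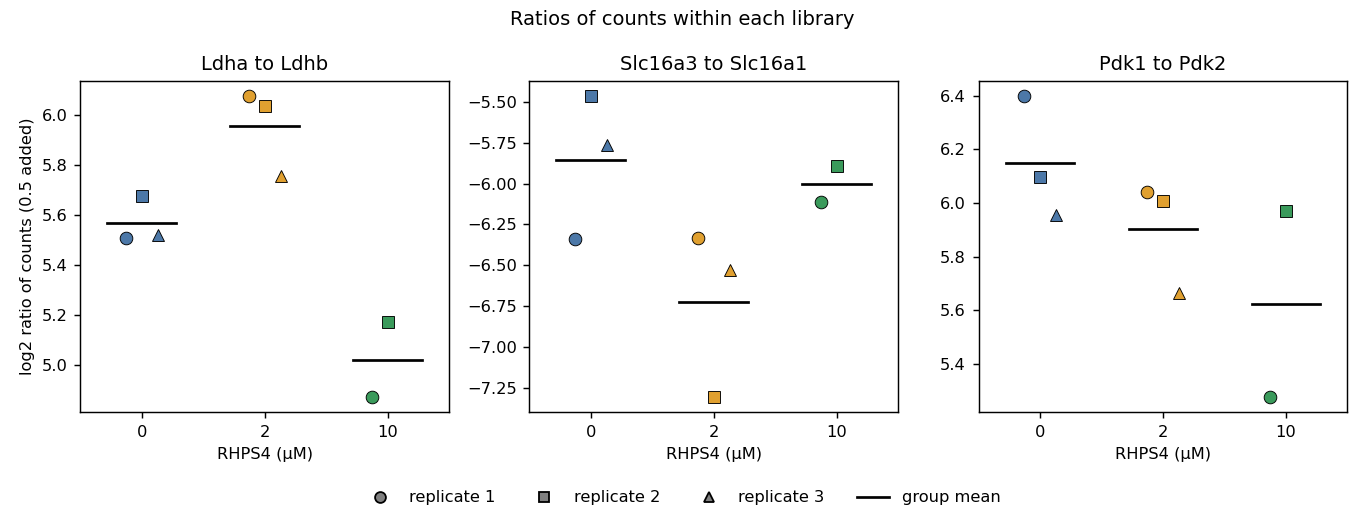
Log2 ratios of counts within each library (0.5 added to each count) for Ldha to Ldhb, Slc16a3 to Slc16a1 and Pdk1 to Pdk2 at 0, 2 and 10 µM RHPS4, with replicates as point shapes and group means as lines on axes that do not start at 0. For Ldha to Ldhb the 2 µM libraries lie highest and the 10 µM libraries lowest without overlap, while both other ratios overlap between 0 µM and each dose.

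Pdk1 was the only one of the 10 genes that passed the adjusted p at both doses, but in edgeR it did so narrowly at 2 µM. PDK1 phosphorylates and inactivates pyruvate dehydrogenase and so keeps pyruvate available for lactate formation. Pdk1 (chromosome 2, 71873224 to 71903858, plus strand) had 126.9, 110.2 and 124.5 CPM at 0 µM, 89.91, 81.36 and 82.92 CPM at 2 µM, and 74.49 and 83.38 CPM at 10 µM. All treated libraries were below all untreated ones, and the 2 treated doses overlapped. The log2 fold change at 2 µM was −0.51 (SE 0.0809, adjusted p = 0.00795), a difference of −29.7% that did not reach the fold of 1.5, against 0.546% of all genes past this adjusted p and lower. Its adjusted p at 2 µM exceeded 0.01 in 7 of the 8 fits with a library left out (0.0132 to 0.0748, against 0.00753 without the first 0 µM replicate), with total counts (0.0123) and with only these doses in the fit (0.0124). The log2 fold change lay between −0.56 and −0.43 in those fits. DESeq2 gave −0.504 at 2 µM (adjusted p = 0.000139), also short of the fold. At 10 µM Pdk1 fell by 0.61 on the log2 scale (SE 0.0916, adjusted p = 0.00162), from 120.5 ± 9.05 CPM (n = 3) to 78.9 ± 6.29 (n = 2), a difference of −34.5%. This call was lost without the third 0 µM replicate (−0.58, adjusted p = 0.00868, below the fold) and without the first 10 µM replicate (−0.56, adjusted p = 0.0174). Between the doses the difference was −0.10 (SE 0.0913, adjusted p = 0.457).

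As a share of the counts of the 6 enzymes of the pathway, Pdk1 was lower at 2 µM than at 10 µM. Its own mean was not, at 84.73 against 78.93 CPM. Per 1000 counts of those enzymes it had 20.46, 20.80 and 24.35 counts in untreated cells, 15.32, 14.34 and 15.48 with 2 µM, and 17.64 and 18.26 with 10 µM. The doses did not overlap in this share, which was set up after its values were seen and is given without a test. Pkm weighs most in it, with on average 57.68%, 61.09% and 62.32% of the counts of the 6 enzymes at 0, 2 and 10 µM. The log2 ratio of Pdk1 to Pdk2, a related kinase with only 14 to 50 counts per library, averaged 6.15 ± 0.226 (n = 3) at 0 µM, 5.91 ± 0.208 (n = 3) at 2 µM and 5.62 ± 0.491 (n = 2) at 10 µM. The groups overlapped in each comparison (exact permutation tests, p = 0.3 at 2 µM and 0.4 at 10 µM, both 0.45 after adjustment).

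Slc16a3 encodes MCT4, the transporter through which glycolytic cells export lactate, and Slc16a1 encodes MCT1, which carries it in either direction. Slc16a3 (chromosome 11, 120948480 to 120960868, plus strand) had 1.765, 3.023 and 2.422 CPM at 0 µM, 1.939, 0.9783 and 1.545 CPM at 2 µM, and 1.648 and 1.942 CPM at 10 µM. The treated and untreated libraries overlapped at both doses. Log2 fold changes were −0.75 at 2 µM (SE 0.265, adjusted p = 0.136) and −0.48 at 10 µM (SE 0.282, adjusted p = 0.282). Slc16a1 was far more abundant per length at every dose and had 138 CPM at 0 µM, 155.5 CPM at 2 µM and 116.9 CPM at 10 µM on average. The log2 ratio of Slc16a3 to Slc16a1 averaged −5.86 ± 0.443 (n = 3), −6.72 ± 0.514 (n = 3) and −6.00 ± 0.153 (n = 2) in that order. The groups overlapped between 0 µM and each dose (exact permutation tests, p = 0.2 at 2 µM and 0.8 at 10 µM). Both 10 µM libraries lay above all 2 µM libraries, by 0.719 on average against a pooled SD of 0.429 (exact permutation test, p = 0.2, the smallest possible).

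Between the treated doses, none of the 10 genes was a DEG in edgeR, against 5.51% of all tested genes, while 6 had an unadjusted p under 0.05, against 36.5% of all genes, and DESeq2 called Ldha. The median log2 fold change of 10 µM against 2 µM was −0.36, where that of all genes was 0.026, and this comparison shares its libraries with the other comparisons. All 10 µM libraries were below all 2 µM libraries in 7 genes, against 24.9% of all genes, and above them in Ldhb, against 27% of all genes. Pgam1 passed the adjusted p at −0.53 (SE 0.0896, adjusted p = 0.00193), against 5.13% of all genes past it and lower, but not the fold, and missed this p without the second 2 µM replicate (0.012) and without the first 10 µM replicate (0.0161). Gapdh, at −0.43 (adjusted p = 0.01, at the cutoff), Ldha, at −0.55 (adjusted p = 0.0127), and Tpi1, at −0.37 (adjusted p = 0.0166), missed the adjusted p in edgeR. In DESeq2 Gapdh, Ldha, Tpi1 and Pgk1 passed it, but of these only Ldha also passed the fold. Ldhb had a log2 fold change of 0.34 (SE 0.161, adjusted p = 0.146) and Slc16a3 of 0.27 (adjusted p = 0.593).

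Across the 8 libraries, members differed in how closely they followed the rest of the list. The correlation of a gene's log2 CPM with the mean of the other 9 was 0.912 for Eno1, whose level is uncertain, and 0.911 for Tpi1. It was 0.877 for Ldha, 0.86 for Pdk1, 0.774 for Pgam1 and 0.762 for Pgk1. It was 0.667 for Gapdh and 0.561 for Pkm, the most abundant pair, which correlated with each other at 0.354. It was 0.202 for Ldhb and 0.173 for Slc16a3. The mean was not scaled by each gene's spread, so genes that vary more weigh more in it. With single members, Pkm correlated from −0.312, with Slc16a3, to 0.924, with Pgk1. These values describe 8 libraries that share dose and scaling. The closest pair was Tpi1 and Pgam1, at 0.956. In 8 of the 10 genes the first 0 µM replicate, the library with the fewest counts, was the highest of all libraries, and in 9 the first 10 µM replicate was below the second, with Gapdh as the exception. Among the other 8966 genes with a mean of at least 10 CPM, those most like the mean of the 10 were Fads1 (r = 0.983), a fatty acid desaturase, Rrad (0.982), a small GTPase, Spp1 (0.977), which encodes osteopontin, Angpt1 (0.972), an angiopoietin, and Evi2a (0.971). Only 2 of these 5 were also among the closest 5 by rank correlation, and 73 genes had r over 0.9.

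The upper part of glycolysis held DEGs of its own. Of 17 tested genes of glucose uptake, the steps to aldolase, their regulators and glycerol phosphate dehydrogenase, 3 fell at 10 µM and none rose, against 1.14% of all tested genes called lower. Pfkl, the liver-type phosphofructokinase, went from 195.4 to 99.22 CPM (log2 fold change −0.98, SE 0.0826, adjusted p = 2.89e-05), Slc2a1, the glucose transporter GLUT1, from 140.7 to 78.29 CPM (−0.85, adjusted p = 8.55e-05), and Gpi1, glucose phosphate isomerase, from 221 to 144.6 CPM (−0.61, adjusted p = 0.000375). Aldoa, aldolase A, had −0.50 (adjusted p = 0.00659) and Hk2, hexokinase 2, had −0.46 (adjusted p = 0.00218), both short of the fold. At 2 µM 1 gene fell, against 0.378% of all genes, namely Pfkp, the platelet-type phosphofructokinase, from 57.6 to 37.02 CPM (−0.64, adjusted p = 0.00121), and it had 55.19 CPM at 10 µM. The list's median log2 fold changes were −0.134 at 2 µM and −0.124 at 10 µM, where 11 of the 17 were negative. At 10 µM the 10 genes of the lower part had a median of −0.49, and Pfkl, Slc2a1, Gpi1 and Aldoa were more negative than that. The upper list also holds genes with few counts, such as Gpd1 (7 to 24 per library) and Aldoc (14 to 34), so the 2 medians are not of like genes. A further list held isoforms and relatives of these enzymes, such as Pgam5, and lactate carriers with their partners. Among its 9 tested genes none was a DEG in edgeR or DESeq2 in any comparison. Of these, 4 at 2 µM and 3 at 10 µM had an unadjusted p under 0.05, against 21.3% and 29.4% of all genes. Emb, which encodes the MCT partner embigin, had −0.49 at 10 µM (adjusted p = 0.00279), short of the fold. Gapdhs, Pgam2, Pgk2, Pklr, Ldhc and Ldhd had too few counts to be tested.

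Genes of pyruvate entry into mitochondria, 16 in number and all tested, had medians near 0 at both doses, 0.01 and 0.017. None was a DEG at 2 µM in edgeR or DESeq2, with 3 at an unadjusted p under 0.05, against 21.3% of all genes. Gpt2, which encodes the mitochondrial alanine aminotransferase that interconverts pyruvate and alanine, rose from 69.16 CPM at 0 µM to 229.3 CPM at 10 µM (log2 fold change 1.73, SE 0.0772, adjusted p = 4.64e-07). It was the only DEG of the list at 10 µM, against 3.09% of all tested genes. Pdk4, another pyruvate dehydrogenase kinase, was higher at 10 than at 2 µM (0.83, adjusted p = 0.00427). Against 0 µM it had −0.63 at 2 µM (adjusted p = 0.0376), with all 2 µM libraries below the untreated ones. At 10 µM it had 0.19 (adjusted p = 0.429) and overlapped with the untreated libraries.

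HIF regulators and HIF targets outside glycolysis held DEGs at both doses. Of 19 tested, 7 fell at 2 µM and 7 at 10 µM, and none rose at either dose, against 0.378% and 1.14% of all genes called lower. The list's medians were −0.495 and −0.418. Egln3, an oxygen-sensing prolyl hydroxylase, Bnip3, a mitophagy receptor, Adm, which encodes adrenomedullin, and Bhlhe40, a transcriptional repressor, fell at both doses. For Bnip3 the log2 fold changes were −0.80 (adjusted p = 0.00163) and −0.91 (adjusted p = 0.000297), and for Bhlhe40 −0.85 (adjusted p = 0.00629) and −1.41 (adjusted p = 0.000158). Ndrg1, Ero1l and Mxi1 fell at 2 µM and were not DEGs at 10 µM, and Ndrg1 (1.22, adjusted p = 8.6e-05) and Mxi1 (0.62, adjusted p = 0.00114) were higher at 10 than at 2 µM, while Ero1l differed by 0.52 (adjusted p = 0.00648), short of the fold. Egln1, Ankrd37 and P4ha2 were DEGs at 10 µM and not at 2 µM in edgeR, and none of them differed between the doses by the same threshold. Ankrd37 missed at 2 µM with −0.89 (adjusted p = 0.0117), where DESeq2 called it. Hif1a itself had 214.5, 209.3 and 220.8 CPM at 0, 2 and 10 µM, with log2 fold changes of −0.03 (adjusted p = 0.82) and 0.04 (adjusted p = 0.757).

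Among 15 other regulators of glycolytic genes, Txnip, which restrains glucose uptake, fell at 2 µM from 122 to 56.01 CPM (log2 fold change −1.12, adjusted p = 0.000217), and had 136.2 CPM at 10 µM. It was the only DEG of the list at 2 µM in edgeR, against 0.378% of all genes called lower. DESeq2 also called Arrdc4, which in edgeR had −0.76 (adjusted p = 0.013). Mycn, a MYC family transcription factor, fell at 10 µM from 2.568 to 0.8034 CPM (−1.68, adjusted p = 0.00249). In edgeR it was the only DEG of the list there, against 1.14% of all genes called lower. DESeq2 also called Trp53, which in edgeR had −0.56 (adjusted p = 0.00522), short of the fold. Atf4 had 0.56 at 10 µM in edgeR (adjusted p = 0.00326), also short of the fold. Myc had log2 fold changes of −0.02 (adjusted p = 0.968) and 0.15 (adjusted p = 0.608). The list's medians were −0.007 and −0.066.

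**Figure D4:**
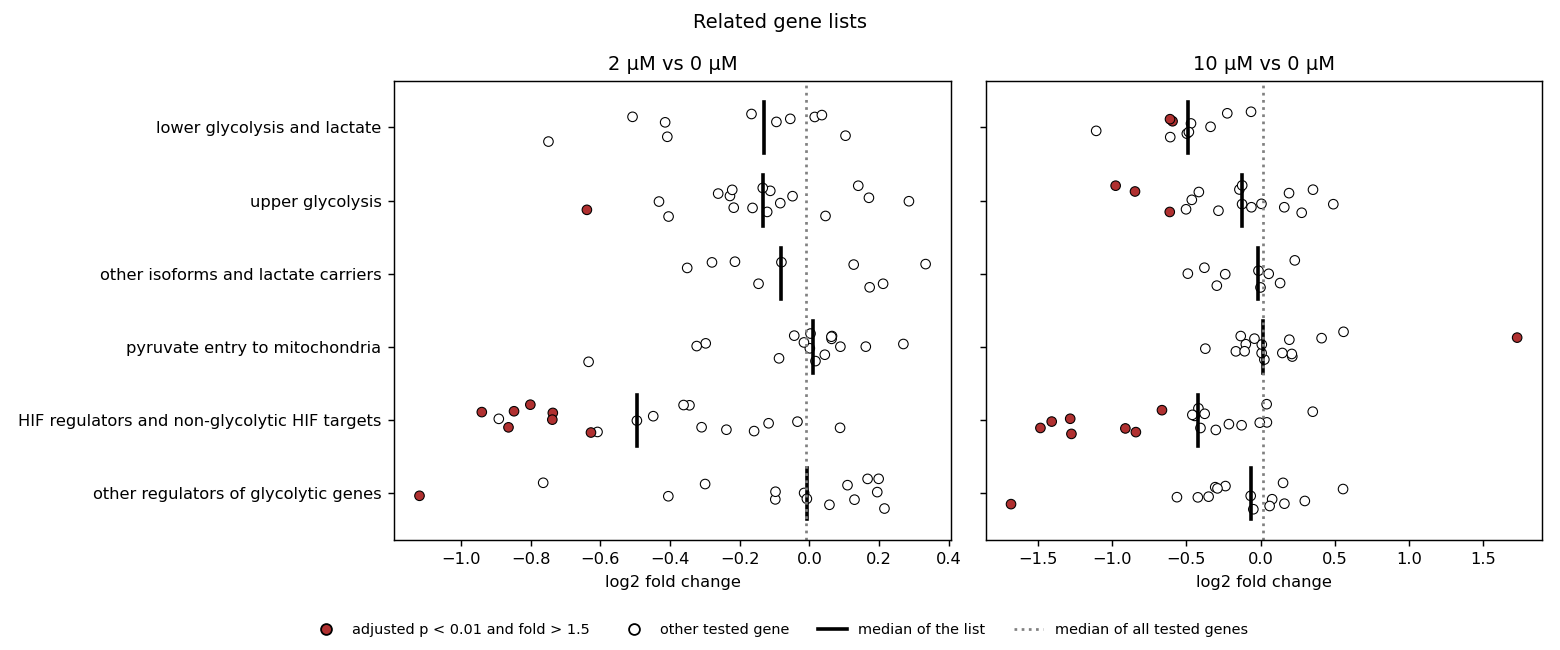
Log2 fold changes from edgeR at 2 µM (left) and 10 µM (right) against 0 µM for the 10 genes and 5 related lists, where each point is a tested gene, filled if it was a DEG, with a bar at the list's median and a dotted line at the median of all tested genes. The medians of the lower glycolysis and HIF lists lie left of 0 at 10 µM, at −0.49 and −0.418, while at 2 µM the HIF list, at −0.495, lies farther left than the 10 genes, at −0.131.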

How the data were processed

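RNA-Seq libraries from 8 samples of MEF cells were strand-specific, with nuclear ribosomal RNA depleted. Per the submitters' notes, FastQC, Trim Galore, cutadapt, STAR 2.5.2a on mm10 and featureCounts were used. The authors deposited raw counts of uniquely mapped fragments per gene and library, as whole numbers without normalization. The annotation and strand setting of the counting are not given in the sources used here, and Tpi1 and Gapdh overlap genes on the other strand. Genes were matched by symbol, and positions, mRNA lengths and shared stretches came from GENCODE for GRCm38.

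The counts were fitted in R 4.3.3 with edgeR 4.0.16 (TMM, filterByExpr, glmQLFit and glmQLFTest) over all 8 libraries with dose as the only factor. DEGs needed an adjusted p under 0.01 and a fold over 1.5, the thresholds of the study. A standard error is the log2 fold change over the square root of F. CPM used TMM-scaled library sizes, and correlations used log2 CPM with a prior count of 2. Ratios had 0.5 added to each count. Lists were described by counts and medians, without a test over the list. Alternatives were RLE, total counts, TMM over nuclear genes, DESeq2 1.42.0, a minimum of 10 counts in each library or no filter at all, no minimum fold, only the 2 groups compared, a replicate block, each library left out, a pseudocount of 5 for ratios and rank correlation. Other steps used Python 3.11.15, numpy 2.4.6, pandas 2.3.3 and scipy 1.17.1.

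The 10 genes, the related lists and the markers were chosen with earlier results of these data known. The genes named were the 10, every listed gene that was a DEG in a comparison, Slc16a1 and Pdk2 for the ratios, and the 5 other genes with a mean of at least 10 CPM that correlated best with the mean of the 10. Aldoa, Hk2, Emb, Eno1b, Hif1a, Myc, Arrdc4, Trp53, Atf4 and the genes too low to test were named after their values were seen.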

Additional observations from a re-analysis of the deposited data

How the results depend on the processing

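With 3, 3 and 2 libraries and folds near 1.5, calls of the 10 genes were sensitive to single libraries. At 2 µM, the DEGs among all genes numbered 109 with DESeq2, 107 with no minimum fold, and 6 to 144 with a library left out (6 without the second 2 µM replicate and 144 without the first 0 µM replicate). The 10 genes then gave 1 with no minimum fold and 0 with any library left out. At 10 µM, all DEGs numbered 904 with total counts, 747 with no minimum fold and 235 to 633 with a library left out, the lowest without the second 10 µM replicate. The 10 genes gave 0 with total counts, 4 with no minimum fold, 1 with only the 2 groups compared and 0 to 2 with a library left out (0 without the third 0 µM replicate, and 1 without the second 0 µM or the first 10 µM replicate), and their median was −0.276 with total counts. For 10 against 2 µM, all DEGs numbered 1539 with no minimum fold and 444 to 884 with a library left out, 515 without the second 2 µM replicate and 444 without the second 10 µM replicate. The 10 genes gave 1 with no filter on low counts (Ldha), 1 with DESeq2 (Ldha), 1 with no minimum fold (Pgam1) and 0 to 2 with a library left out (Pgam1 and Ldha without the second 10 µM replicate), with a median of −0.228 under total counts. The share of DEGs that were higher was, for 2 against 0, 10 against 0 and 10 against 2 µM, 23.9%, 63.1% and 71.2% in edgeR, 39.4%, 92.5% and 91.6% with total counts, and 16.5%, 46.6% and 57% with DESeq2.

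Some small values changed sign. Leaving out a library gave the log2 ratio of Slc16a3 to Slc16a1 at 10 against 0 µM values from −0.389 to 0.047 (positive without the second 0 µM replicate), and that of Pdk1 to Pdk2 at 10 against 2 µM values from −0.629 to 0.065 (positive without the first 10 µM replicate). Without a library, the 2 µM value of Ldha ranged from −0.12 to 0.066, that of Pgk1 from −0.036 to 0.127 (also −0.03 and −0.033) and that of Pgam1 from −0.006 to 0.117, and the 10 µM value of Ldhb from −0.205 to 0.033. With total counts, Ldha at 2 µM was 0.029, Ldhb at 10 µM 0.152 and Pdk1 at 10 against 2 µM 0.033. The cause was not tested. By rank correlation, 2 of the 5 most alike genes stayed the same.

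Deviations from the group means of libraries with the same number correlated at 0.199, 0.085 and 0.161 between 0 and 2 µM. Unlike numbers gave −0.154 to 0.058 there, so the same numbers were more alike between these doses. With 10 µM libraries the same numbers gave −0.145 to −0.021 and unlike ones −0.1 to 0.145. The 2 libraries at 10 µM deviate from their mean by opposite amounts, so these values come in pairs of opposite sign. Like and unlike numbers are therefore not separate comparisons there. The main fit took no pairing, and whether 0 and 2 µM libraries shared a batch was not tested. With the replicate number as a block, DEGs numbered 54, 322 and 735 in the 3 comparisons, with 0, 2 and 0 of the 10 genes, and the adjusted p was 0.0113 for Tpi1 at 10 µM and 0.0209 for Pdk1 at 2 µM.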
